A study of Heterocephalus glaber with 9 samples.

Results

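The genes examined here build, remodel and clear the particles that carry lipid in blood. They are MTTP, LIPC, LCAT, PLTP, SCARB1, ABCA1, LRP1, LIPG and ANGPTL4, chosen by their symbols, and all 9 were found among the 16339 gene rows of the liver count table. Polyadenylated liver RNA of male naked mole-rats (Heterocephalus glaber) was sequenced, each library carrying a title of its own. Young animals (n = 6) were labelled as 2.7 to 4.1 years of age, and the 3 old animals, called A, B and C, as 20, 30 and 20 years. For the old animals the methods of the study give a minimum age above the lower of these labels, and the labels are used here. The old animals are described as non-breeders, and the reproductive status of the young ones is not given. The labels name no treatment and no engineered allele. Young and old livers were compared in the study to ask how expression changes during aging of a long-lived rodent.

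The liver secretes triglyceride on particles built around apolipoprotein B, and it supplies the apolipoprotein A-I from which high-density lipoprotein (HDL) forms. In blood, lipases and transfer proteins strip and reshape these particles, and LCAT turns the free cholesterol of HDL into cholesteryl ester. The liver takes the products back through surface receptors, whole by endocytosis or, for HDL, by selective uptake of the cholesteryl ester. Hepatocytes make most of these proteins, while LRP1 and ABCA1 are also found in macrophages and other cells, and LIPG is best known from endothelium.

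The deposited values are read counts per gene, which sum to between 14541856 and 20464409 per young liver and between 15176226 and 20048731 per old liver. In each age group 1 library stood apart. Over the genes tested, old liver A differed from the mean of B and C by a median of 0.95 on the log2 scale in either direction, against 0.18 between B and C. Young liver 3, from the oldest young animal, differed from the mean of the other 5 by a median of 0.58. Albumin (ALB) took 1.41% of the counts of liver A, 6.99% to 7.69% of those of C and B and 7.86% to 14.8% of those of young livers, young liver 3 having the lowest young share. Results that rest on these libraries are therefore also given without them. The titles mark all young libraries and no old one as re-used. After the prefix NMR, which all titles share, young titles carry NM with a number and old titles a single letter. Library origin and age therefore cannot be told apart.

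No difference between old and young livers in any of the 9 genes passed the test. The test was edgeR's quasi-likelihood test, with TMM scaling factors, adjusted over all 12277 genes tested with a threshold of FDR 0.1. Levels are given as CPM, the count of a gene divided by the TMM-scaled library total in units of 1000000 reads. By edgeR, 0 of the 9 were higher and 0 lower, although 15.4% of all genes tested passed (11.7% higher and 3.65% lower). At an unadjusted p under 0.05 there were also 0 of 9, against 29.1% of all genes. DESeq2 called 0 of the 9, against 21.5% of the genes it tested, and limma voom called 0, against 37.3%. Without liver A the count was again 0 of 9, against 3.48% of all genes (2.13% higher and 1.35% lower). Without liver A and young liver 3 it was 0 of 9 too, against 25.9% (14.2% higher and 11.7% lower). The old and young ranges overlapped in each gene (0 of 9 without overlap), while they were disjoint in 17.8% of all genes tested. The median size of the log2 fold change (log2FC, old against young) was 0.18 for the 9 genes and 0.51 for all genes, and 5 of the 9 were negative, against 49.2% of all genes. In bulk tissue, fewer cells that express an RNA and less of that RNA per cell cannot be told apart. The plot of CPM by liver shows the 9 genes side by side.

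**Figure D1:**
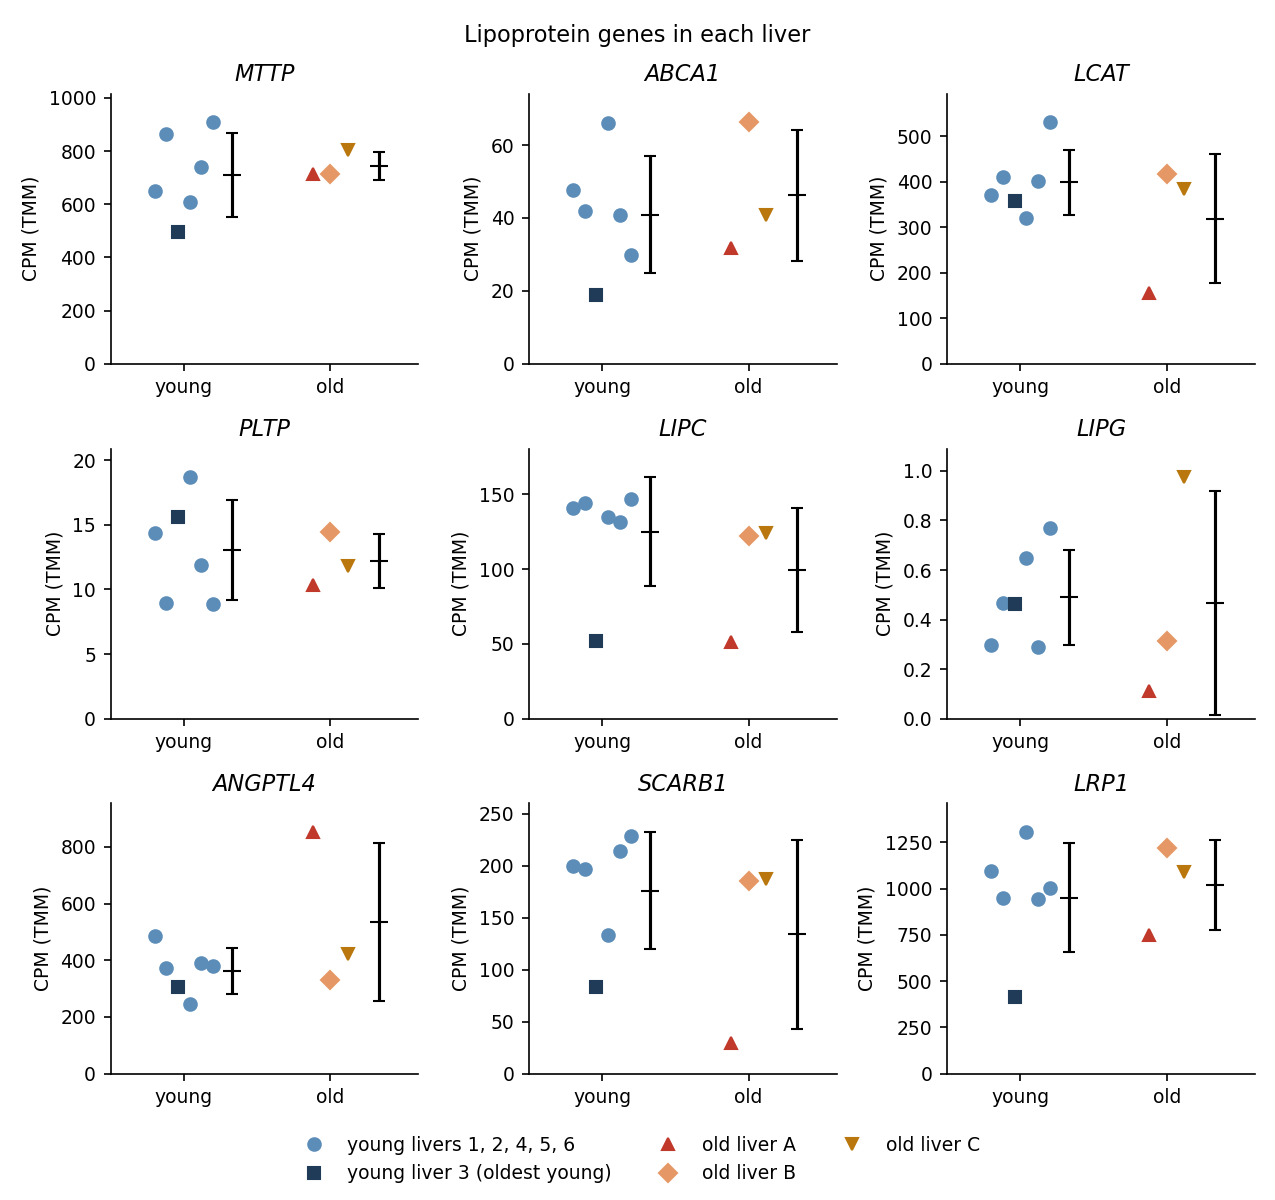
Level of each of the 9 lipoprotein genes in every liver, in TMM-normalized CPM on a linear axis starting at 0, with young livers on the left and old livers on the right of each panel. Points are single livers, and the bar beside each group gives mean and SD (n = 6 young, n = 3 old). Old and young livers overlap in every panel, and old liver A lies below all other livers for LIPC, LCAT, SCARB1 and LIPG and above them for ANGPTL4.

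MTTP, the microsomal protein that loads lipid onto nascent apolipoprotein B, had the smallest relative spread of the 9 genes among old livers (coefficient of variation 7.05%). It was at 714, 716 and 806 CPM in old livers A, B and C, and at 495 to 908 CPM in the young ones (median 695). The 3 old values fell inside the young range. With 7493 to 17384 counts in each liver, MTTP gave a log2FC of 0.07 (SE 0.25, 95% interval -0.48 to 0.62, FDR = 0.869 by edgeR). As a ratio, the interval runs from 0.717 to 1.53, so changes larger than these lie outside it. Liver A, which departed from B and C in many genes, was at 0.939 times their mean for MTTP, the value closest to 1 among the 9.

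ABCA1, which moves cholesterol and phospholipid onto lipid-poor apolipoprotein A-I and so starts an HDL particle, had 31.7, 66.2 and 40.7 CPM in old livers A, B and C. The young livers ranged from 18.8 to 66.0 CPM with a median of 41.4. The highest old and the highest young liver were nearly level, and young livers 3 and 6, at 18.8 and 29.8 CPM, were below the lowest old one. Its log2FC was 0.18 (SE 0.37, 95% interval -0.63 to 0.99, FDR = 0.762 by edgeR). It was 0.39 without liver A and -0.18 without liver B, so the sign of the estimate rests on single animals.

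LCAT, the plasma enzyme that esterifies HDL cholesterol, was at 156, 418 and 383 CPM in old livers A, B and C. The young livers spanned 320 to 530 CPM (median 385). Livers B and C thus sat inside the young range, and liver A was the lowest of all 9 livers, at 0.389 times the mean of B and C. The log2FC of -0.32 (SE 0.32, 95% interval -1.03 to 0.39, FDR = 0.514 by edgeR) became 0.01 without liver A.

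PLTP, which transfers phospholipid between lipoproteins and changes the size of HDL, had 10.3, 14.4 and 11.8 CPM in old livers A, B and C, against 8.89 to 18.7 CPM in young ones (median 13.1). The old livers were within the young range throughout. Its log2FC was -0.10 (SE 0.28, 95% interval -0.72 to 0.53, FDR = 0.834 by edgeR). PLTP was also the only one of the 9 genes in which young liver 3 lay above the mean of the other young livers, at 1.24 times that mean.

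LIPC encodes hepatic lipase, which hydrolyses triglyceride and phospholipid of remnants and HDL at the surface of liver cells. Old livers A, B and C had 51.4, 122 and 124 CPM. The young livers had 52.0 to 147 CPM with a median of 138, and the lowest of them was young liver 3. The other 5 young livers lay between 131 and 147 CPM, so that in each age group a single liver was far below the rest. The estimate for LIPC was -0.33 (log2FC, SE 0.38, 95% interval -1.16 to 0.49, FDR = 0.563 by edgeR). Without liver A it was -0.02, and without both departing livers it was -0.18.

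LIPG, endothelial lipase, which acts mainly on phospholipids of HDL, was barely detected. It had 2, 7 and 21 counts in old livers A, B and C and 4 to 11 counts in each young liver, or 0.112, 0.314 and 0.974 CPM against 0.289 to 0.770 CPM (median 0.465). The highest and the lowest of the 9 livers were both old. LIPG had a log2FC of -0.04 with an SE of 0.59, and its 95% interval of -1.35 to 1.27 was the widest among the 9 genes (FDR = 0.968 by edgeR). At this depth only a large difference in LIPG would have been detectable. LIPG was not tested when young liver 4 or young liver 6 was left out, since it then failed the filter on low counts.

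ANGPTL4, a secreted inhibitor of lipoprotein lipase that fasting and PPAR signaling induce, had the estimate farthest from 0 among the 9 genes. Old livers A, B and C had 851, 330 and 421 CPM, and the young livers 246 to 485 CPM (median 376). Liver A was above every other liver, at 2.26 times the mean of B and C, whereas B and C were both within the young range. The log2FC was 0.56 (SE 0.32, 95% interval -0.16 to 1.27, FDR = 0.265 by edgeR). Leaving out liver A brought it to 0.05, and leaving out young liver 3 as well to 0.00, so the positive estimate rests on liver A.

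SCARB1 encodes scavenger receptor class B type 1, through which hepatocytes take cholesteryl ester from HDL. It was at 29.2 CPM in old liver A, against 185 and 187 CPM in B and C. The young livers had 83.3 to 229 CPM with a median of 198, young liver 3 being the lowest of them and young liver 4 next, at 133 CPM. Liver A was at 0.157 times the mean of B and C, and 95.3% of the genes tested differed less between them. SCARB1 had a log2FC of -0.40 (SE 0.52, 95% interval -1.54 to 0.75, FDR = 0.624 by edgeR), which became 0.08 without liver A. The biological coefficient of variation that edgeR estimated for SCARB1 was 0.508, the highest among the 9 genes, whose median of 0.353 was close to the 0.352 of all genes.

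LRP1, a large endocytic receptor that clears apolipoprotein E-bearing remnants, was counted deeply, with 6298 to 27220 counts per liver. Old livers A, B and C had 749, 1221 and 1087 CPM. The young livers had 416 to 1303 CPM (median 975), and young liver 3 was the lowest of all 9. The old livers thus lay inside the young range. The log2FC of LRP1 was 0.10 (SE 0.33, 95% interval -0.64 to 0.84, FDR = 0.858 by edgeR), and it was 0.28 without liver A and -0.05 without young liver 3.

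**Figure D2:**
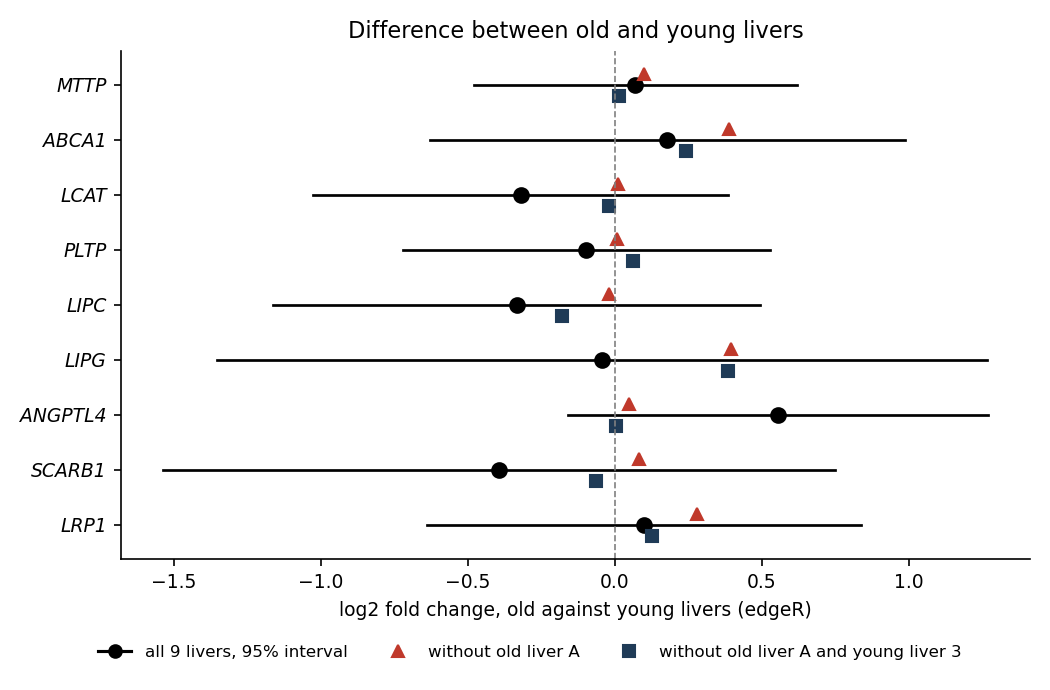
Log2 fold change of the 9 lipoprotein genes between old and young livers from edgeR, with the 95% interval over all 9 livers (black), the value without old liver A (red triangles) and the value without old liver A and young liver 3 (blue squares). Every interval includes 0, and ANGPTL4 moves from 0.56 to 0.05 and SCARB1 from -0.40 to 0.08 when liver A is left out.

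The departures of liver A and young liver 3 from their groups fell on partly different genes. The ratios of levels in a single liver to the mean of others were taken after adding 0.1 CPM to both, which matters mainly for LIPG with its low level. In young liver 3 the levels of LIPC, LRP1, ABCA1 and SCARB1 were 0.373, 0.393, 0.416 and 0.429 times the mean of the other 5 young livers. MTTP was less low there, at 0.656 times that mean. LCAT, ANGPTL4 and LIPG were nearer to the other young livers, at 0.878, 0.813 and 0.945 times their mean. In old liver A, SCARB1, LIPG, LCAT and LIPC were the low ones (0.157, 0.285, 0.389 and 0.417 times the mean of B and C), and ABCA1 and LRP1 were at 0.594 and 0.649 times that mean. LIPC and SCARB1 were thus among the 4 lowest ratios in both livers, LCAT and LIPG in liver A alone. These are differences of single livers with no replicate, and they carry no test.

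**Figure D3:**
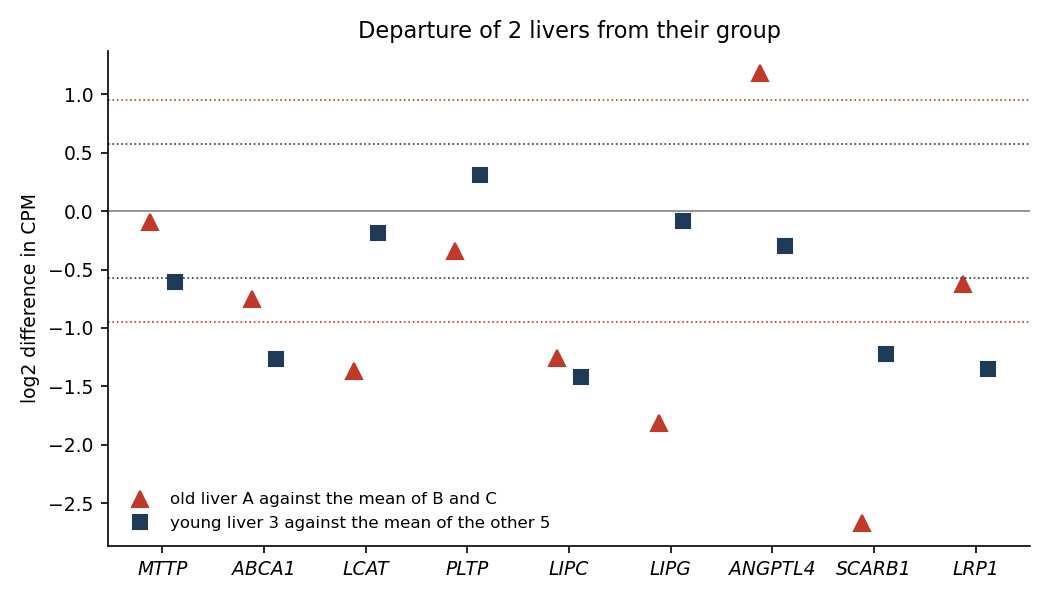
Log2 difference in CPM for each of the 9 lipoprotein genes between old liver A and the mean of old livers B and C (red triangles), and between young liver 3 and the mean of the other 5 young livers (blue squares). Dotted lines mark the median size of the same difference over all genes tested, 0.95 for liver A and 0.58 for young liver 3. SCARB1 is farthest from 0 in liver A and LIPC in young liver 3.

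As a measure of likeness, the log2 CPM profile of each gene over the 9 livers was centred on its own mean, and the root mean square difference between profiles was taken. ABCA1 and LRP1 were the closest pair of the 9 genes, with a difference of 0.23 on the log2 scale. LIPC and LRP1 followed at 0.34. SCARB1 and ANGPTL4 were the least alike, at 1.24, liver A being the lowest for one and the highest for the other. The profiles share their libraries, both departing ones included, and the values are a description only.

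Around the 9 genes, lists of their partners were examined in the same fit, by role. Among 12 tested genes of particle assembly and secretion, CREB3L3, a fasting-responsive transcription factor of liver, was higher in old livers (1 higher, 0 lower, against 11.7% and 3.65% of all genes). CREB3L3 had 210, 218 and 175 CPM in old livers A, B and C and 60.2 to 96.2 CPM in young ones, so the groups did not overlap (log2FC 1.33, SE 0.22, FDR = 0.0312 by edgeR). It passed without liver A as well (FDR = 0.0299 by edgeR). The remaining 11 did not pass, among them APOB, the structural protein that MTTP lipidates (log2FC -0.41, FDR = 0.349 by edgeR), and P4HB, the disulfide isomerase bound to MTTP (log2FC -0.34, FDR = 0.396 by edgeR). The median log2FC of this list was -0.33, against 0.02 over all genes tested, and -0.05 without liver A.

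None of 11 tested partners in lipolysis of plasma triglyceride passed by edgeR (0 higher, 0 lower, against 11.7% and 3.65% of all genes). Their median log2FC was -0.29, or 0.05 without liver A. Lipoprotein lipase itself (LPL), which ANGPTL4 inhibits, had 0.224 CPM in liver A, 1.52 and 2.18 CPM in B and C and 1.19 to 4.08 CPM in young livers. Liver A was thus the lowest for LPL and the highest for ANGPTL4, while B and C were inside the young range for both. The LPL level of liver A rests on 4 counts, against 17 to 69 counts in each young liver. The log2FC of LPL was -0.66 (SE 0.60, FDR = 0.469 by edgeR). Of the angiopoietin-like relatives of ANGPTL4 examined, ANGPTL2 and ANGPTL6 did not pass, and 3 were too low to test.

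None of 14 tested HDL proteins and partners passed by edgeR (0 higher, 0 lower, against 11.7% and 3.65% of all genes). Their median log2FC was -0.29, or 0.04 without liver A. APOA1, the main HDL apolipoprotein, had 1587, 1121 and 1453 CPM in old livers A, B and C. Its young values were 321 to 1434 CPM with a median of 559, young liver 3 being the highest (log2FC 1.07, SE 0.42, FDR = 0.129 by edgeR). APOA1 passed by DESeq2 (FDR = 0.0915), as 21.5% of genes did, and by limma voom (FDR = 0.00264), as 37.3% did. APOC1 passed by DESeq2 (FDR = 0.0647) and limma voom (FDR = 0.0626) in the other direction (log2FC -1.02, FDR = 0.14 by edgeR). In the assembly and lipolysis lists SAR1B, VMP1, APOC2, APOC3 and LMF1, each lower, passed by both tools too, as did CREB3L3, which was higher. In the lists of partners described below, AMN and RXRB, each higher, and SORL1 and SCD, each lower, passed by both tools though not by edgeR. The share of all genes passing by both tools was not taken. By edgeR, APOA1 passed without liver A and young liver 3 (log2FC 1.34, FDR = 0.0161), though not without liver A alone (FDR = 0.328). APOA2, another HDL apolipoprotein named here after its values were seen, passed by edgeR without both livers as well (FDR = 0.0473), so that 2 of the 14 were then higher, against 14.2% of all genes. CETP, the cholesteryl ester transfer protein, had 0 to 4 counts in each liver and was not tested.

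Among 18 tested partners in uptake, CUBN, STAB1 and LRP5 were higher in old livers (3 higher, 0 lower, against 11.7% and 3.65% of all genes), and the median log2FC was 0.50, or 0.14 without liver A. CUBN encodes cubilin, an endocytic receptor best known from kidney and gut. It had 12.2, 4.80 and 5.38 CPM in old livers A, B and C and at most 3.50 CPM in any young liver (log2FC 2.08, SE 0.42, FDR = 0.0389 by edgeR). The scavenger receptor STAB1 of sinusoidal endothelium and macrophages had 755 CPM in liver A, about 270 and 268 CPM in B and C, and 111 to 225 CPM in young livers (log2FC 1.38, SE 0.38, FDR = 0.0598 by edgeR). LRP5, a relative of LRP1 known mainly as a Wnt coreceptor, had a log2FC of 0.89 (SE 0.30, FDR = 0.0916 by edgeR). In these 3 genes, which were picked by a test on the same values, the old and young ranges were disjoint. They were disjoint in SORL1 too, which was lower in old livers and did not pass by edgeR (log2FC -0.69, FDR = 0.142 by edgeR). Over all genes tested the disjoint share was 17.8%. Without liver A 0 of the 18 partners were higher and 0 lower, against 2.13% and 1.35% of all genes. Without liver A and young liver 3, 4 were higher and 2 lower, against 14.2% and 11.7%, and CUBN (FDR = 0.00453), LRP5 (FDR = 0.0674) and STAB1 (FDR = 0.0859 by edgeR) were among the 4. LRPAP1, the chaperone of LRP1, did not pass (log2FC -0.33, FDR = 0.481 by edgeR).

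ABCA1 and PLTP are targets of the liver X receptors (LXRs), and ANGPTL4 is a target of PPAR alpha. Of 9 other LXR targets tested, 0 were higher and 0 lower by edgeR, against 11.7% and 3.65% of all genes. Their median log2FC of 0.25 was -0.11 without liver A. SCD, a desaturase, had the LXR target estimate farthest from 0 (log2FC -1.78, SE 0.79, FDR = 0.162 by edgeR). Of 14 tested targets of PPAR alpha or of fasting, 5 were higher and 0 lower, against 11.7% and 3.65% of all genes, with a median log2FC of 0.05. FGF21, a hormone of fasting liver, had 66.3, 113 and 178 CPM in old livers A, B and C against 0.651 to 12.3 CPM in young ones (log2FC 4.22, SE 0.82, FDR = 0.0376 by edgeR). CPT1A, which admits fatty acids to mitochondria, had a log2FC of 1.45 (SE 0.43, FDR = 0.0714 by edgeR), and the lipid droplet protein PLIN2 had 1.03 (SE 0.28, FDR = 0.0567 by edgeR). CREB3L3, described above, and TXNIP, an inhibitor of thioredoxin named here after its value was seen, were the others (TXNIP log2FC 1.25, FDR = 0.0714 by edgeR). In liver A, PLIN2 was at 20.0 CPM and within the young range of 14.3 to 23.0 CPM, while B and C had 50.7 and 39.4 CPM. ANGPTL4 and TXNIP were highest in liver A, whereas PLIN2, CPT1A and FGF21 were lower there than in B and C. Without liver A, 3 of the 14 (CREB3L3, PLIN2 and FGF21) were higher and 0 lower, against 2.13% and 1.35% of all genes. CPT1A (FDR = 0.113) and TXNIP (FDR = 0.27 by edgeR) then did not pass, and the median log2FC of the list was 0.32. Without liver A and young liver 3, 5 were higher and 3 lower, against 14.2% and 11.7%.

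Among 16 tested transcription factors that control lipoprotein genes, NR1H2 and MLXIPL were higher in old livers (2 higher, 0 lower), a share near the 11.7% of all genes, and the median log2FC was 0.26. NR1H2, which encodes LXR beta, had 118, 57 and 56.9 CPM in A, B and C and 31.5 to 50.8 CPM in young livers (log2FC 0.92, SE 0.27, FDR = 0.0687 by edgeR). MLXIPL, the glucose-sensing factor ChREBP, had 971 CPM in liver A, 205 and 235 CPM in B and C, and 85.7 to 238 CPM in young livers (log2FC 1.58, SE 0.50, FDR = 0.0794 by edgeR). Both were highest in liver A, and 0 of the 16 passed without it, against 3.48% of all genes. Without liver A and young liver 3, 1 was higher (NR1H2, FDR = 0.0907 by edgeR) and 1 lower, against 14.2% and 11.7% of all genes.

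**Figure D4:**
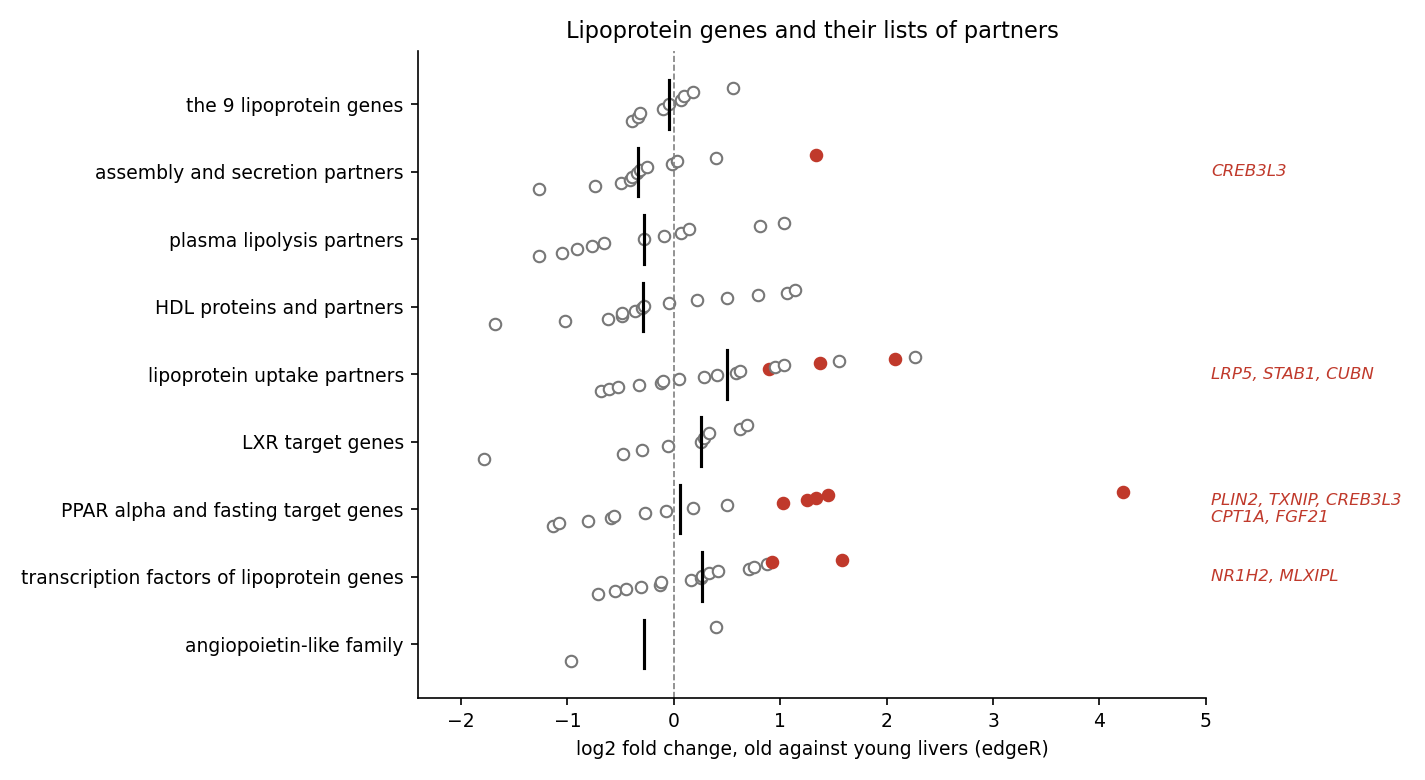
Log2 fold change between old and young livers from edgeR for the 9 lipoprotein genes and for each tested and reported gene of 8 lists of partners, 1 list per row. Each circle is a gene, filled red where FDR is 0.1 or less and named at the right from the lowest to the highest fold change, and vertical bars give the median of the row. The row of the 9 genes holds no filled circle, while 5 of 14 genes are filled in the row of PPAR alpha and fasting targets. Over all genes tested the share at this FDR was 15.4%.

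Ratios of 2 genes within a library need no scaling factor, and 8 were compared between the ages, of which 7 are described, with a two-sided exact permutation test over the 84 ways to split the livers, whose smallest possible p is 0.0238. The ratio of LCAT to APOA1 counts was 0.0980, 0.372 and 0.264 in old livers A, B and C. It was 0.649 to 0.997 in 5 young livers and 0.249 in young liver 3, so that the groups overlapped through young liver 3 alone. By edgeR, LCAT itself had a log2FC of -0.32 (0.01 without liver A), and APOA1 had 1.07 (0.96 without liver A). Young liver 3 had the highest young APOA1 level, 1434 CPM, while its LCAT, at 357 CPM, was inside the range of the other young livers. The log2 ratio of LCAT to APOA1 differed by -1.66 between old and young livers (exact permutation p = 0.0714, or 0.286 after adjustment over the 8 ratios). With 1 liver left out the difference ranged from -2.06 to -1.10. The exact permutation p then ranged from 0.0357 without young liver 3, the liver of the overlap, which is the smallest value that the remaining 8 livers allow, to 0.214 without liver A. LRP1 to LRPAP1 was 25.3, 15.2 and 13.2 in A, B and C against 5.69 to 15.5 in young livers (log2 difference 0.61, exact permutation p = 0.119, adjusted 0.317). SCARB1 to PDZK1, its adaptor in hepatocytes, was 0.684 in liver A, 2.12 and 2.19 in B and C and 1.20 to 2.70 in young livers (log2 difference -0.33, exact permutation p = 0.524, adjusted 0.599). SCARB1 was thus low in liver A relative to PDZK1 too. MTTP to P4HB, ABCA1 to ABCG1, PLTP to LCAT and LIPC to LIPG differed by 0.48, 0.67, 0.37 and 0.14 on the log2 scale, with adjusted values from the exact permutation test between 0.343 and 0.905.

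The labelled tissue was checked against markers of its cells, whose calls are to be read against the 11.7% of all genes higher and the 3.65% lower in old livers. Hepatocyte markers were abundant in all livers, but the summed level of the 12 listed was 30250 CPM in liver A, against 122300 and 105200 CPM in B and C and 139600 to 243900 CPM in young livers (0 of 12 higher and 0 lower by edgeR). The 12 macrophage markers summed to 139 CPM in liver A, 573 and 492 CPM in B and C and 319 to 507 CPM in the young (0 of 11 tested passed), and CD163 was at 0 in the young livers. Endothelial markers summed to 1095 CPM in liver A and to 384 to 645 CPM in all others (2 of 12 higher and 1 lower between the ages). Stellate cell markers were at 113 to 170 CPM in sum in old livers against 225 to 317 CPM in young ones, with 4 of 11 lower. Cholangiocyte markers summed to 150 CPM in liver A and to 276 to 494 CPM in all others. Erythroid markers summed to 30.5 to 56.0 CPM in old and 114 to 574 CPM in young livers, with 2 of 2 tested lower. Adipocyte markers summed to 56.5 to 95.2 CPM in old and 23.5 to 56.4 CPM in young livers, with 4 of 6 tested higher, though adiponectin (ADIPOQ) was at no more than 4.13 CPM in any liver and leptin (LEP) had at most 2 counts. T cell markers summed to at most 7.32 CPM in any liver. The sums of liver A did not stand for all genes of a list. Liver A was the lowest of the 9 livers for 9 of 12 hepatocyte markers, but the highest for APOA1 and inside the young range for HNF4A and CYP2E1. It was the lowest for 10 of 12 macrophage markers. Among the 6 cholangiocyte markers it was the lowest for 3 and the highest for 2, CFTR and SOX9. Of the 12 endothelial markers it was the highest for 7, led by STAB2 (433 CPM), and the lowest for 4, PECAM1, CDH5, LYVE1 and ENG. The part of these markers in the low LIPC, LCAT and SCARB1 of liver A was not tested.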

How the data were processed

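The 9 genes, their lists of partners, the ratios and the markers were chosen with earlier results of these data known. Single-end reads of polyadenylated RNA (TruSeq, HiSeq) had been mapped by the authors with STAR 2.4.1d, keeping reads with a single place in the genome, and per the processing notes HTSeq was used. Its strand setting is not given in the sources used here. The deposited values are raw counts, with no normalization. Left out were 25 rows with symbols turned into dates and 93 rows in which the old livers' values follow another alphabetical order than the symbols (correlation of young and old means -0.165 as deposited and 0.977 after reordering), none of them a row of the 9 genes. The remaining 16221 rows were analysed in R 4.3.3 with edgeR 4.0.16 (TMM, filterByExpr, robust glmQLFit, glmQLFTest, no covariates, Benjamini-Hochberg adjustment), with DESeq2 1.42.0 and limma 3.58.1 as alternatives, and the fit was tested on simulated data. Log2 CPM profiles and differences of single livers used an offset of 0.1 CPM. Standard errors are derived from the F statistic. Libraries of a group differed beyond sampling noise (lowest chi-square per degree of freedom 27.6). The study's methods give as many animals as libraries in each group, and each library was taken as an animal. Named are the 9 genes, every gene of a list that passed (the 4 with the lowest p where more than 4 did) and partners used in ratios. Chosen after their values were seen were TXNIP, APOA2, SCD, APOB, LPL, CETP, APOC1, APOC2, APOC3, SAR1B, VMP1, LMF1, SORL1, AMN and RXRB. Some list genes and 1 ratio are not reported here. These genes were left out of the counts and medians of the lists, though not of the fit, and the ratio was kept in the adjustment. Gene lengths were not used, so levels are not compared between genes.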

Additional observations from a re-analysis of the deposited data

Results flagged for a closer look

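Dixon's test was applied to 16 sets of 6 young values (9 genes and 7 ratios). In 3 of them young liver 3 stood apart from the other young livers (critical value 0.625). The test took CPM for genes and log2 values for ratios, and the count depends on these scales. Chance alone gives about 1 in 20 for a single set. The sets share genes and libraries, so this rate does not hold for the count. LIPC was at 52.0 CPM there, while the next young liver had 131 CPM. The ratio of LRP1 to LRPAP1 counts was 5.69, against 10.9 to 15.5 in the other young livers. The ratio of LCAT to APOA1 counts was 0.249, against 0.649 or more in the others.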

How the results depend on the processing

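Under 19 alternatives in scaling, tool, filter, threshold, rows and livers, 0 of the 9 genes passed wherever they could be fitted, the lowest FDR being 0.143 (ANGPTL4 without old liver B, edgeR, the only case of an unadjusted p under 0.05). The count over all genes was far less stable, from 125 higher and 62 lower without young liver 2 to 2514 and 2066 with limma voom. The log2 fold change of PLTP turned to 0.13 with limma voom and 0.063 without liver A and young liver 3, and that of LIPG to 0.37 and 0.38. Leaving out 1 liver at a time gave -0.014 to 0.15 for MTTP, -0.57 to 0.009 for LCAT, -0.24 to 0.032 for PLTP, -0.71 to 0.082 for SCARB1, -0.18 to 0.39 for ABCA1, -0.056 to 0.28 for LRP1 and -1.14 to 0.40 for LIPG, while LIPC (-0.53 to -0.02) and ANGPTL4 (0.05 to 0.80) kept their sign. LIPG could not be fitted with at least 10 counts in every liver or without young liver 4 or 6. Log2 ratio differences ranged from -0.21 to 0.71 for LIPC to LIPG, -2.06 to -1.10 for LCAT to APOA1 and -0.61 to 0.23 for SCARB1 to PDZK1. Without liver A, 0 uptake partners, 3 PPAR alpha targets and 0 transcription factors were higher, against 2.13% of all genes. Without liver A and young liver 3, 1 assembly partner was higher and 2 lower, 0 lipolysis partners higher and 1 lower, 2 HDL partners higher and 0 lower, 4 uptake partners higher and 2 lower, 0 LXR targets higher and 1 lower, 5 PPAR alpha targets higher and 3 lower, 1 transcription factor higher and 1 lower, and 0 of the angiopoietin-like family higher and 1 lower, against 14.2% and 11.7% of all genes. The causes were not tested. No paired analysis was made, since each library was taken as an animal of its own and no label links a young one to an old one. With 3 old livers the intervals of the 9 genes are wide, and low counts limit LIPG.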
